A study of Mus musculus with 6 samples.

Results

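The 9 genes described here tether chromosome ends to the nuclear envelope in meiosis or form the envelope at which this takes place. They were *Terb1*, *Terb2*, *Majin*, *Sun1*, *Sun2*, *Spdya*, *Lmna*, *Lmnb1* and *Lmnb2*, chosen by gene symbol from the 54532 genes of an expression table. All 9 were found, and all 9 were among the 15451 genes tested, that is, those averaging 1 FPKM or more across libraries. FPKM divides a gene's fragments by its length and by a size for its library, so levels of different genes can be compared. In these libraries that size was 0.971 to 1.05 times the sum of fragments on genes, so it was not simply that sum. The libraries are RNA-seq of total RNA from STRA8-positive (STRA8+) germ cells of mouse testes, 3 labelled Control with the genotype Cre and 3 labelled cKO with the genotype *Srsf1* knockout. *Srsf1* encodes a serine- and arginine-rich splicing factor, and the treatment field of all 6 libraries reads conditional knockout. The labels give neither the Cre driver, the strain and age of the mice, the way in which STRA8+ cells were isolated, nor whether the libraries of a group came from separate animals. P-values below therefore measure the spread between these libraries, part of which may be technical.

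In meiotic prophase I, telomeres bind the inner nuclear membrane through the complex of TERB1, TERB2 and MAJIN, which takes over from the shelterin proteins that cap telomeres in other cells. SUN-domain proteins span the inner membrane and join KASH-domain proteins of the outer membrane in the LINC complex, through which cytoplasmic dynein moves the chromosome ends while homologues search for each other. CDK2, activated by the cyclin-like protein Speedy A (the product of *Spdya*), acts at the same attachment sites, and a meshwork of A- and B-type lamins lies beneath the membrane.

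The libraries held 15364511 to 17310353 fragments on genes in the control group and 14447887 to 15326722 in the cKO group, and each of the 9 genes had between 363 and 6336 fragments in every library. *Srsf1* had 45.2 to 84.7 FPKM in the control and 4.94 to 5.17 FPKM in the cKO libraries. *Stra8* itself was high in all 6 libraries (222.1 to 261.7 FPKM in control and 242.1 to 312.7 FPKM in cKO), and the germ cell genes *Ddx4*, *Dazl* and *Mael* had at least 129.3 FPKM in each library, although *Dazl* was called higher (log2 fold change 0.43, limma adjusted p = 0.016) and *Ddx4* (-0.24, adjusted p = 0.048) and *Mael* (-0.43, adjusted p = 0.0061) lower. Of 10 markers of undifferentiated spermatogonia, 9 were tested, and *Ret* was called higher and *Id4* lower. Of 10 markers of differentiating spermatogonia, *Esx1* was called higher and *Dmrtb1* lower. Spermatid markers stood apart. Their summed level over 10 genes was 2510 to 8417 FPKM in the control libraries, highest in replicate 2, and 8.05 to 9.92 FPKM in the cKO libraries, and all 10 were called lower. Of 10 pachytene spermatocyte markers, 9 were called lower (summed level 1080 to 1273 FPKM in control and 254.1 to 280.6 FPKM in cKO). Of 10 early meiotic prophase markers, 2 were called lower, *Syce2* and *Spo11*, and the summed levels overlapped (1056 to 1419 FPKM in control and 1044 to 1374 FPKM in cKO). Of 29 markers of Sertoli, Leydig, peritubular, endothelial and blood cells, 16 were tested and 1 (*Rhox5*) was called higher, with summed levels of 117.9 to 134.2 FPKM in control and 97.6 to 203.6 FPKM in cKO. No marker of any of these lists was at 0 in all 6 libraries. In bulk RNA, fewer cells of a type and less RNA per cell cannot be told apart.

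Of the 9 genes, *Sun2* was called higher and *Spdya* lower in the cKO libraries, and the other 7 did not pass the threshold of 0.05 on the adjusted p (limma on log2(FPKM + 1), Benjamini-Hochberg adjustment over all genes tested). Over all genes tested, 11.8% were called higher and 22.2% lower, so 1 of 9 in either direction is no more than the background. Under quantile normalization 4854 genes were called higher and 2665 lower, against 1821 and 3437 here, so the balance of directions depends on the scaling. The median log2 fold change of the 9 genes was -0.047, and that of all genes was -0.0082. *Sun2* and *Spdya* were also the members whose groups did not overlap, *Sun2* with all 3 cKO libraries above the control libraries (21.8% of all genes) and *Spdya* with all 3 below (28.6% of all genes). In either direction the groups were apart for 50.4% of all genes.

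**Figure D1:**
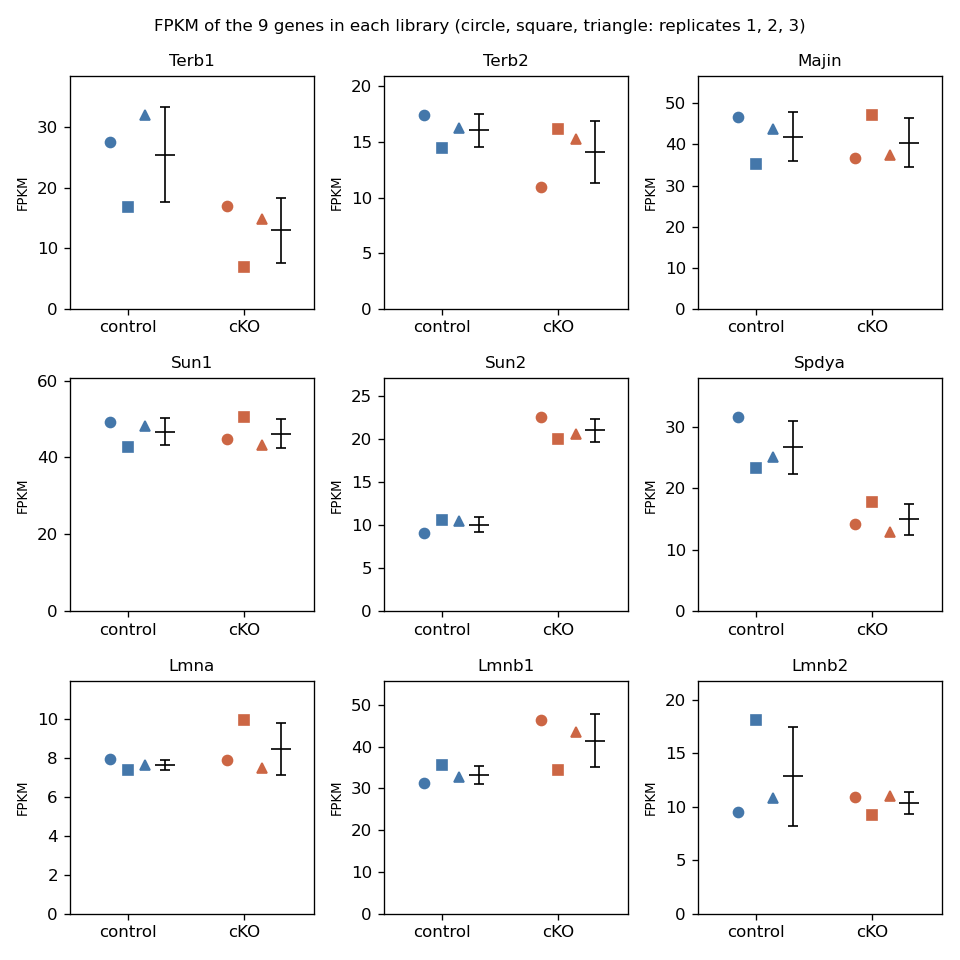
FPKM of each of the 9 genes (y axis, from 0, with its own range per panel) in the 3 control (blue) and 3 cKO (orange) libraries. Circles, squares and triangles are replicates 1, 2 and 3, and black marks are the mean ± SD. The groups are apart for *Sun2* (9.03 to 10.6 FPKM against 20.0 to 22.5 FPKM) and *Spdya* (23.3 to 31.5 FPKM against 12.8 to 17.7 FPKM) and overlap for the other genes.

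The sequences before the start sites of 4 genes are shown because these genes carry the comparison: *Sun2* and *Spdya*, which passed the test, *Sun1*, the relative of *Sun2* that did not, and *Terb1*, which had the largest difference among the rest. They were picked after the values had been seen. Each sequence is the 250 bases before the first RefSeq start site, on GRCm38.p6, written 5′ to 3′ on the strand of the gene. Capitals mark matches on either strand to TCCCGC, the E2F6 motif (GCGGGA on the other strand), and to CCAAT, the NFY motif (ATTGG on the other strand).
Sun2, chr15:79742537-79742786, minus strand: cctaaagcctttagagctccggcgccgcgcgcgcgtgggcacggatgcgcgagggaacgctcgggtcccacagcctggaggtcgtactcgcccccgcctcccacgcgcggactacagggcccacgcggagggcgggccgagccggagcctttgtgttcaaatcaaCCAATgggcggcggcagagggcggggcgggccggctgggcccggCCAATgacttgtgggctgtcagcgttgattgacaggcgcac
Sun1, chr5:139200387-139200636, plus strand: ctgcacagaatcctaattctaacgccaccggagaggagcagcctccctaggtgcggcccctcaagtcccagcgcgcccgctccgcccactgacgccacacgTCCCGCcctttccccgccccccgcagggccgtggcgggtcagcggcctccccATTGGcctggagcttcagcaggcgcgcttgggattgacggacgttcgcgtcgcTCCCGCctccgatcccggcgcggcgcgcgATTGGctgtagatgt
Spdya, chr17:71551811-71552060, plus strand: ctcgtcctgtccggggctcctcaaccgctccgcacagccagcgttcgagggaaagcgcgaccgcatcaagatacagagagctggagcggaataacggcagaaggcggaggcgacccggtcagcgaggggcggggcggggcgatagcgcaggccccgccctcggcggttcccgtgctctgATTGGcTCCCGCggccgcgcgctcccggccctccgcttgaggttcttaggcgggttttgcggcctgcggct
Terb1, chr8:104509888-104510137, minus strand: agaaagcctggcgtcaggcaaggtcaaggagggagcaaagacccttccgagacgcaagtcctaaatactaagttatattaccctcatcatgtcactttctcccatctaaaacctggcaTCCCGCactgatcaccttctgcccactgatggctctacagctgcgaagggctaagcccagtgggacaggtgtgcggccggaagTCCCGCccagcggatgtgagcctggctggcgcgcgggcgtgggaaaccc

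The *Sun2* sequence held 2 CCAAT matches and no TCCCGC, whereas that of *Sun1* held 2 of each. *Spdya* had 1 of each, side by side, and *Terb1* had 2 TCCCGC matches and no CCAAT. Of 32817 promoter windows of the same length, 33.8% held CCAAT and 16.9% held TCCCGC. None of the 4 sequences held CACGTG, the site of MGA and MAX (6.02% of all windows), or CCTCAG, the core of the STRA8 motif (22.4%). AACNG, a core shared by MYB proteins, occurred 3 times in the *Spdya* sequence and in none of the other 3 sequences shown, and 74.2% of all windows held it. A second, downstream start site of *Sun1*, not shown, had 1 AACNG and 1 CCAAT. *Lmna* and *Lmnb2* also had entries, with 2 start sites each. The upstream start site of *Lmna* had no match to any of the 5 motifs and that of *Lmnb2* had 1 AACNG. The other start site had 1 CCTCAG and 1 CCAAT for *Lmna*, and 2 CCTCAG and 1 AACNG for *Lmnb2*. *Terb2* and *Majin* had no entry, and the promoter of *Lmnb1* was not used here. A match is a description of letters and not evidence of binding.

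Of the genes of the attachment complex, *Terb1* differed most between the genotypes, but its groups overlapped. *Terb1* (ENSMUSG00000052616, chromosome 8, 104446719 to 104509910, minus strand) encodes the subunit that contacts the telomere protein TRF1. *Terb1* had 27.5, 16.8 and 32.03 FPKM in control replicates 1, 2 and 3 and 17.0, 6.94 and 14.8 FPKM in cKO replicates 1, 2 and 3. Replicate 2 was the lowest of its group on both sides, and control replicate 2 lay just below cKO replicate 1. The group means were 25.4 ± 7.81 and 12.9 ± 5.30 FPKM (SD, n = 3), so the cKO mean was 50.8% of the control mean. The log2 fold change of -0.96 (standard error 0.35, 95% limits -1.80 to -0.13) had an adjusted p of 0.076 in limma. It ranged from -1.22 without control replicate 2 (limma adjusted p = 0.044) to -0.60 without cKO replicate 2 (adjusted p = 0.15). The direction was the same whichever library was left out, and the call was gained only without control replicate 2 among these fits.

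*Terb2* and *Majin* differed by less than the spread between replicates. *Terb2* (ENSMUSG00000027229, chromosome 2, 122186272 to 122206397, plus strand) encodes the subunit that links TERB1 to MAJIN. Its levels were 17.5, 14.5 and 16.2 FPKM in control and 10.9, 16.2 and 15.3 FPKM in cKO replicates 1, 2 and 3, with cKO replicate 1 alone below the control range. *Terb2* had a log2 fold change of -0.19 (95% limits -0.55 to 0.17, limma adjusted p = 0.38). *Majin* (ENSMUSG00000024786, chromosome 19, 6184388 to 6224225, plus strand) encodes the membrane anchor of the complex and was the most abundant of the 3 genes. It had 46.6, 35.1 and 43.9 FPKM in control and 36.8, 47.2 and 37.4 FPKM in cKO replicates 1, 2 and 3, so that the highest and the lowest library were both replicate 2. For *Majin*, the log2 fold change was -0.047 (95% limits -0.38 to 0.28, limma adjusted p = 0.82).

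Of the SUN-domain genes, *Sun2* rose and *Sun1* did not pass the test. *Sun2* (ENSMUSG00000042524, chromosome 15, 79724070 to 79742536, minus strand) had 9.03, 10.6 and 10.5 FPKM in control replicates 1, 2 and 3 and 22.5, 20.0 and 20.6 FPKM in cKO replicates 1, 2 and 3. The lowest cKO library was well above the highest control library. The means were 10.05 ± 0.886 and 21.02 ± 1.35 FPKM (SD, n = 3), a 2.09-fold difference. On the log2(FPKM + 1) scale the difference was 1.00 (standard error 0.092, 95% limits 0.78 to 1.21, limma adjusted p = 2.4e-04). *Sun2* kept its direction and its call under all 15 alternatives, with log2 fold changes from 0.93 to 1.19. After centring each library on the early meiotic prophase markers, it was 1.19 (adjusted p = 0.0027). The summed level of the somatic markers overlapped between the groups, as given above. Of the 16 tested, 3, *Rhox5* (1.64 to 2.68 FPKM in control and 3.08 to 5.06 FPKM in cKO), *Star* (2.57 to 2.77 and 3.49 to 4.87 FPKM) and *Tagln* (1.59 to 2.38 and 2.68 to 3.17 FPKM), were above the control range in all 3 cKO libraries, and 0 were below it, against 21.8% and 28.6% of all genes, so the count above is no more than the background. Their part in the rise of *Sun2* was not tested.

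*Sun1* (ENSMUSG00000036817, chromosome 5, 139200637 to 139249840, plus strand) encodes the SUN protein needed for telomere attachment in meiosis. By group mean *Sun1* was the most abundant of the 9 genes, though not in cKO replicates 1 and 3. It had 49.2, 42.7 and 48.2 FPKM in control and 44.8, 50.5 and 43.2 FPKM in cKO replicates 1, 2 and 3. All 6 libraries lay within a narrow band, and the groups overlapped fully. The log2 fold change was -0.017 with 95% limits of -0.23 to 0.19 (limma adjusted p = 0.90), limits that exclude a change of the size seen for *Sun2*. The ratio of *Sun2* to *Sun1* within a library, which multiplying a library by a constant does not alter, was 0.183, 0.248 and 0.218 in control and 0.504, 0.395 and 0.475 in cKO replicates 1, 2 and 3. It did not overlap between the groups (exact permutation test, two-sided, p = 0.1, the smallest that 3 against 3 libraries allow). *Sun1* and *Sun2* each share exonic bases with an annotated antisense gene (302 and 147 bases), and these antisense genes had at most 10 fragments in any library.

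*Spdya* fell. The gene (ENSMUSG00000052525, chromosome 17, 71552061 to 71589533, plus strand) encodes Speedy A, also called RingoA, the activator of CDK2 at meiotic telomeres. Its levels were 31.5, 23.3 and 25.0 FPKM in control replicates 1, 2 and 3 and 14.2, 17.7 and 12.8 FPKM in cKO replicates 1, 2 and 3. The highest cKO library, replicate 2, was below the lowest control library, also replicate 2. The means were 26.6 ± 4.33 and 14.9 ± 2.55 FPKM (SD, n = 3), and the cKO mean was 56.0% of the control mean. The log2 fold change was -0.80 (standard error 0.15, 95% limits -1.16 to -0.44, limma adjusted p = 0.0073), and it was called lower under all 15 alternatives (-0.92 to -0.60). Centred on the early meiotic prophase markers, the difference was -0.60 (adjusted p = 0.015). The pachytene and spermatid markers fell in the same libraries, as given above, and their part in the fall of *Spdya* was not tested.

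The *Spdya* locus overlaps other genes. It shares 402 exonic bases with *Trmt61b* on the opposite strand and 250 with the pseudogene *Mettl4-ps1* on the same strand, and 79.05% of its 100-base windows occur in no other annotated gene, against 97.6% to 100% for the other 8 genes. Whether the counting used strand is not stated. *Trmt61b* had 119 to 149 fragments in control and 124 to 152 fragments in cKO libraries (log2 fold change 0.084, limma adjusted p = 0.66). *Mettl4-ps1* had 36 to 73 and 34 to 45 fragments (log2 fold change -0.25, adjusted p = 0.33), whereas *Spdya* had 785 to 1141 and 427 to 571 fragments.

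*Cdk2*, the kinase that Speedy A activates, had 36.9, 32.1 and 38.3 FPKM in control and 26.5, 33.1 and 29.7 FPKM in cKO replicates 1, 2 and 3. The groups overlapped through control replicate 2, and the log2 fold change of -0.26 (95% limits -0.51 to -0.0075) did not pass the test (limma adjusted p = 0.10). *Spdya* had 0.855, 0.726 and 0.652 times the *Cdk2* level in control and 0.537, 0.536 and 0.430 times in cKO replicates 1, 2 and 3. The ratio was thus lower in every cKO library (exact permutation test, two-sided, p = 0.1, the smallest possible).

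**Figure D2:**
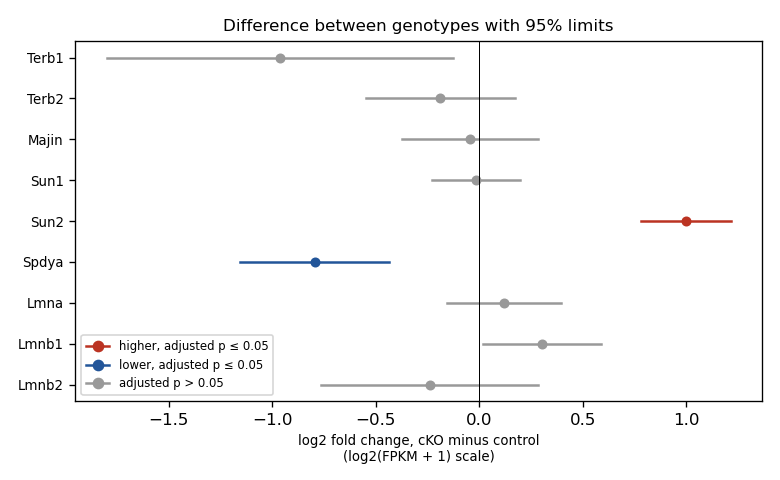
Log2 fold change of each of the 9 genes, cKO minus control (x axis, log2(FPKM + 1) scale), with the 95% limits from limma as lines. *Sun2* lies at 1.00 and *Spdya* at -0.80, both past an adjusted p of 0.05, and the lines of *Terb1* and *Lmnb1* leave 0 on 1 side without passing it.

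None of the lamin genes passed the test. *Lmnb1* (ENSMUSG00000024590), the gene of lamin B1, came nearest, with 31.3, 35.6 and 32.8 FPKM in control and 46.5, 34.4 and 43.6 FPKM in cKO replicates 1, 2 and 3. Only cKO replicate 2 lay within the control range. *Lmnb1* differed by 0.30 on the log2 scale (95% limits 0.017 to 0.59, limma adjusted p = 0.096), and without cKO replicate 2 it was 0.43 (adjusted p = 0.016). *Lmnb2* (ENSMUSG00000062075, chromosome 10, 80901203 to 80918245, minus strand) encodes lamin B2 and, from another start, the spermatid form lamin B3, which a table of whole genes cannot separate. It had 9.52, 18.2 and 10.8 FPKM in control and 10.9, 9.21 and 10.98 FPKM in cKO replicates 1, 2 and 3. Control replicate 2 stood out, and that library also had the highest spermatid marker level. The part of those markers in the *Lmnb2* level was not tested. *Lmnb2* differed by -0.24 on the log2 scale (95% limits -0.76 to 0.28, limma adjusted p = 0.44), and without control replicate 2 it was 0.021 (adjusted p = 0.91).

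*Lmna* (ENSMUSG00000028063, chromosome 3, 88480147 to 88509956, minus strand) encodes lamins A and C and the meiotic form C2, which again share a row. By group mean it was the least abundant of the 9 genes, though not in cKO replicate 2. *Lmna* had 7.92, 7.39 and 7.61 FPKM in control and 7.90, 9.97 and 7.48 FPKM in cKO replicates 1, 2 and 3, and cKO replicate 2 alone was above the control range. Its log2 fold change was 0.12 (95% limits -0.15 to 0.40, limma adjusted p = 0.46). *Lmnb1* thus remained the predominant lamin gene in both groups, at 3.95, 4.82 and 4.31 times the *Lmna* level in control and 5.89, 3.45 and 5.82 times in cKO replicates 1, 2 and 3 (exact permutation test, two-sided, p = 0.6). Relative to *Lmnb2*, *Lmnb1* stood at 3.29, 1.96 and 3.03 in control and 4.28, 3.73 and 3.97 in cKO replicates 1, 2 and 3. These values did not overlap (exact permutation p = 0.1, the smallest possible), and the lowest came from control replicate 2.

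Ratios within the attachment complex were examined in the same way. *Terb1* stood at 0.590, 0.478 and 0.730 times *Majin* in control and at 0.463, 0.147 and 0.396 times in cKO replicates 1, 2 and 3, again without overlap (exact permutation test, two-sided, p = 0.1). *Terb2* over *Majin* did overlap (0.375, 0.413 and 0.370 in control and 0.297, 0.342 and 0.409 in cKO replicates 1, 2 and 3; exact permutation p = 0.4). *Terb1* over *Terb2* also overlapped (exact permutation p = 0.2). *Spdya* over *Majin* was 0.677, 0.663 and 0.570 in control and 0.386, 0.376 and 0.342 in cKO replicates 1, 2 and 3, and the groups were apart (exact permutation p = 0.1). In all, 8 ratios were computed, chosen with their levels known, and after Benjamini-Hochberg adjustment over the 8 exact permutation tests the lowest p was 0.16, so none could pass a threshold of 0.05 in this design.

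**Figure D3:**
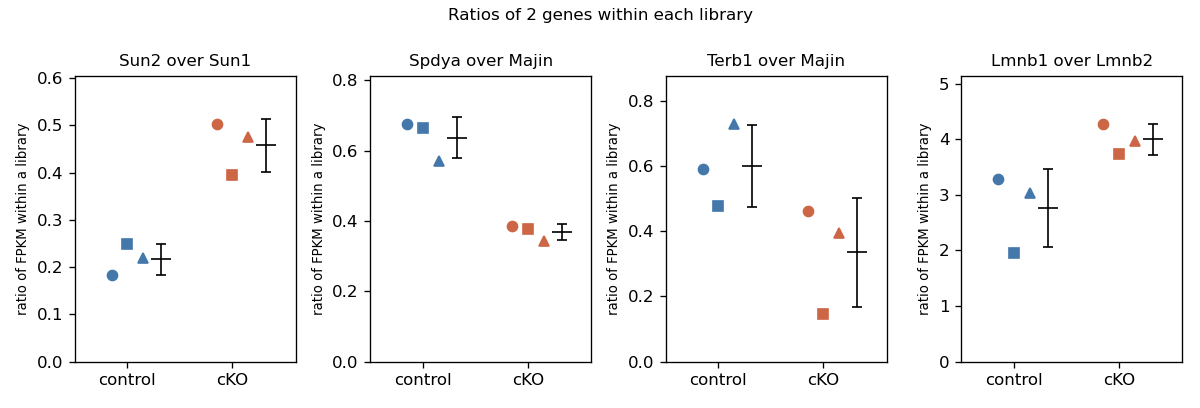
Ratio of the FPKM of 2 genes within each library (y axis, from 0), for 3 control (blue) and 3 cKO (orange) libraries. Circles, squares and triangles are replicates 1, 2 and 3, and black marks are the mean ± SD. In each of the 4 ratios shown the groups do not overlap, with *Sun2* over *Sun1* at 0.183 to 0.248 in control and 0.395 to 0.504 in cKO. Of the 8 ratios computed, those not shown include *Lmnb1* over *Lmna*, *Terb2* over *Majin* and *Terb1* over *Terb2*, whose groups overlap.

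By level, the control libraries ranked *Sun1* first (46.7 ± 3.51 FPKM), followed by *Majin* (41.9 ± 5.97), *Lmnb1* (33.2 ± 2.18), *Spdya* (26.6 ± 4.33), *Terb1* (25.4 ± 7.81), *Terb2* (16.1 ± 1.48), *Lmnb2* (12.8 ± 4.65), *Sun2* (10.05 ± 0.886) and *Lmna* (7.64 ± 0.269; all mean ± SD, n = 3). Neighbours in this order overlapped between libraries, except *Sun2* and *Lmna*. In the cKO libraries the order was *Sun1* (46.2 ± 3.82 FPKM), *Lmnb1* (41.5 ± 6.33), *Majin* (40.5 ± 5.87), *Sun2* (21.02 ± 1.35), *Spdya* (14.9 ± 2.55), *Terb2* (14.1 ± 2.81), *Terb1* (12.9 ± 5.30), *Lmnb2* (10.4 ± 0.990) and *Lmna* (8.45 ± 1.33). There *Sun2* was separated from the neighbours on both sides, and the other neighbours overlapped.

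For each gene, the 2 other protein-coding genes with the most similar profile were found, by the root-mean-square difference (in log2 units) of mean-centred values over the 6 libraries. *Sun2* was closest to *Hhex* (0.047) and to *Cdkn1a* (0.055), the gene of the cell cycle inhibitor p21, which differed by 0.96 and 1.04 (log2) between the groups. *Spdya* was closest to *Nkiras2* (0.048) and *Dcaf6* (0.053), with differences of -0.76 and -0.82. *Sun1* was closest to *Btbd7* (0.015), and *Majin* to *Gapvd1* (0.025) and *Virma* (0.031). For *Terb2* these were *Megf6* (0.049) and *Cirbp* (0.050), and for *Lmna*, *Lmnb1* and *Lmnb2* the closest were *Manf* (0.028), *Map3k9* (0.025) and *Zfp428* (0.053). *Terb1* had no close match, and its nearest profile, *As3mt*, differed by 0.26. The median over all other genes was 0.52 for *Sun2*, 0.49 for *Spdya* and 0.70 for *Terb1*. The 6 libraries fall in 2 groups, so a shared difference between the groups adds to the likeness, and these values are a description only.

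The partners of these genes were followed in 3 lists, which together held 49 genes. Of the 46 tested, 6 were called higher and 9 were called lower, against 11.8% and 22.2% of all genes, and their median difference was -0.027 (log2). Among the LINC complex and motor partners, 13 of 16 were tested, and 1 was called higher and 5 lower. The lower genes included the SUN-domain genes of spermatids. *Sun3* had 8.04, 16.0 and 8.19 FPKM in control replicates 1, 2 and 3 against 0.147, 0.263 and 0.0506 FPKM in the cKO libraries, which correspond to 3, 5 and 1 fragments. *Sun5* had 6.95, 11.7 and 7.41 FPKM against 0.310, 0.942 and 0.160 FPKM. *Spag4* (SUN4) had 11.1, 19.8 and 11.1 FPKM against 4.43, 3.87 and 3.91 FPKM. These 3 genes (limma adjusted p = 1.2e-04, 2.7e-04 and 0.0020) were all highest in control replicate 2, as were the spermatid markers. Whereas *Sun2* rose, all 3 spermatid SUN genes fell.

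The remaining lower genes of this list encode dynein subunits. *Dync1i2*, an intermediate chain, had 14.4, 12.4 and 13.4 FPKM in control and 6.54, 7.18 and 5.42 FPKM in cKO replicates 1, 2 and 3, with no overlap (log2 fold change -0.97, limma adjusted p = 8.5e-04). *Dync1h1*, the heavy chain, differed less (-0.32, adjusted p = 0.042), and its adjusted p was above 0.05 under 9 of 15 alternatives. The gene called higher was *Tor1a* (0.41, adjusted p = 0.032), an ATPase of the envelope lumen, whose call was lost under 8 of 15 alternatives. *Ccdc155*, which encodes KASH5, the meiotic KASH partner of SUN1, had a mean of 84.1 FPKM in control and 72.2 FPKM in cKO (log2 fold change -0.21, 95% limits -0.43 to -0.00086, limma adjusted p = 0.11), and without control replicate 2 it was called lower (-0.30, adjusted p = 0.028). *Syne1*, *Syne3* and *Syne4*, KASH genes of somatic cells, were too low to be tested.

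Of the 13 genes for shelterin and telomere upkeep, 2 were called higher and 1 lower. *Acd*, the shelterin subunit TPP1, had 15.6, 14.8 and 14.002 FPKM in control and 11.3, 9.98 and 10.4 FPKM in cKO replicates 1, 2 and 3, without overlap (log2 fold change -0.45, limma adjusted p = 0.0059). *Dkc1*, a subunit of telomerase, was higher (0.41, adjusted p = 0.0099), and so was *Ten1*, of the CST complex (0.37, adjusted p = 0.016), although *Ten1* lost its call under 6 of 15 alternatives. Centring on the early meiotic prophase markers ended the calls of *Acd* (-0.26, limma adjusted p = 0.34) and *Dkc1* (0.61, adjusted p = 0.057). *Terf1*, which encodes the TRF1 protein bound by TERB1, had a mean of 12.2 FPKM in control and 11.7 FPKM in cKO (log2 fold change -0.059, 95% limits -0.28 to 0.16, limma adjusted p = 0.65).

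Among 20 partners at the inner nuclear membrane and lamina, 3 were called higher and 3 lower. The higher genes were *Zmpste24* (log2 fold change 0.53, limma adjusted p = 0.0072) and *Rce1* (0.36, adjusted p = 0.0053), both proteases that process prenylated proteins such as prelamin A, and the pore subunit *Nup93* (0.23, adjusted p = 0.023). *Zmpste24* had 5.88, 5.02 and 5.38 FPKM in control and 8.15, 9.11 and 7.68 FPKM in cKO replicates 1, 2 and 3. The lower genes were *Lemd2* (-0.46, adjusted p = 0.015) and *Lemd3* (-0.55, adjusted p = 0.018), both LEM-domain proteins of the inner membrane, and *Tor1aip1* (-0.76, adjusted p = 0.040), which encodes LAP1, an activator of torsins. *Tor1aip1* had 12.4, 22.0 and 11.8 FPKM in control and 8.74, 8.91 and 7.41 FPKM in cKO replicates 1, 2 and 3, and without control replicate 2, the library with the highest spermatid marker level, its log2 fold change was -0.49 (limma adjusted p = 0.018). *Nup93* lost its call under 7, *Tor1aip1* under 8, *Lemd3* under 4 and *Lemd2* under 3 of the 15 alternatives. *Lbr*, the lamin B receptor, had a mean of 27.4 FPKM in control and 28.9 FPKM in cKO (log2 fold change 0.075, 95% limits -0.083 to 0.23, limma adjusted p = 0.42).

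**Figure D4:**
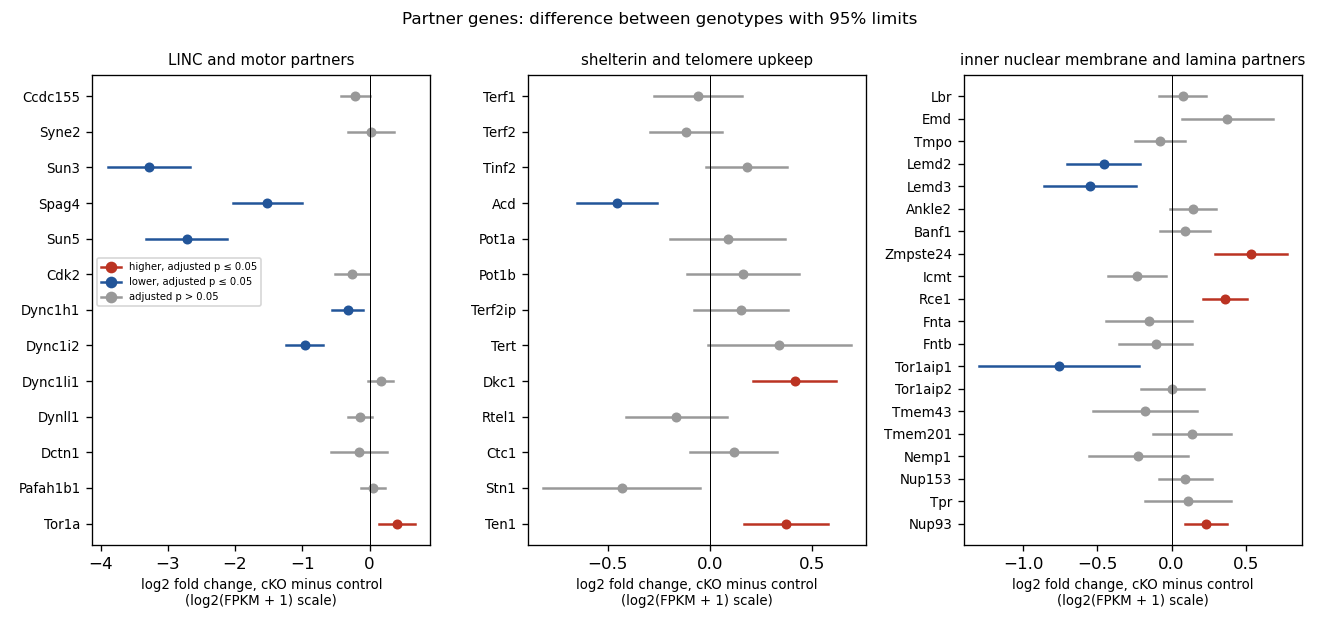
Log2 fold change, cKO minus control (x axis, log2(FPKM + 1) scale, its own range per panel), of the 46 tested partner genes in 3 lists, with 95% limits from limma as lines. Red genes were called higher (6) and blue genes lower (9), and *Sun3*, *Sun5* and *Spag4* lie farthest to the left.

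**Figure D5:**
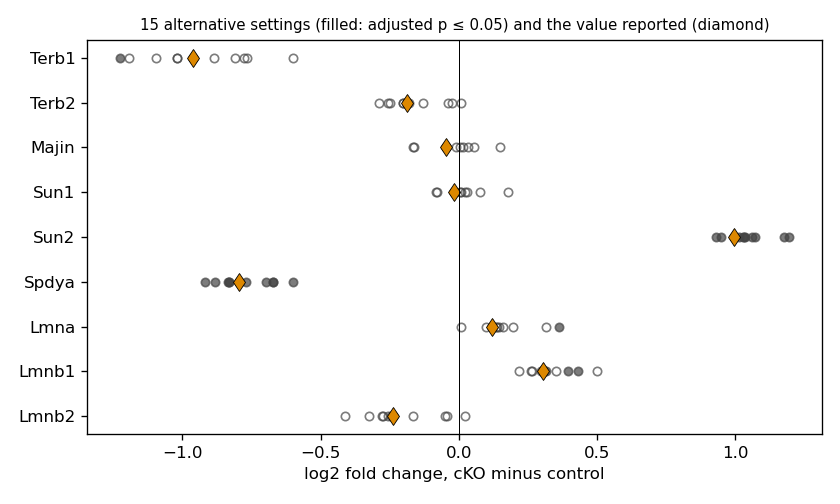
Log2 fold change of the 9 genes, cKO minus control (x axis), as reported (diamonds) and under 15 alternative settings (circles, filled where the adjusted p was at most 0.05). Settings that change only the test lie under the diamond. All circles of *Sun2* (0.93 to 1.19) and *Spdya* (-0.92 to -0.60) are filled. Those of *Majin*, *Sun1*, *Terb2* and *Lmnb2* fall on both sides of 0, with 1 circle above 0 for *Terb2* and 1 for *Lmnb2*.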

How the data were processed

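The authors deposited FPKM for each library and gene, with the gene length used. The submitters' processing notes name HISAT2 2.0.5 and mm10; the counting tool is not given in the sources used here. FPKM multiplied by gene length fell within 0.05 of a whole multiple of 1 step for 100% of values above 0, so fragments were recovered. For all 9 genes, the table's coordinates matched GENCODE M21 (GRCm38).

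Genes averaging 1 FPKM or more were tested on log2(FPKM + 1), which understates changes of low genes, with limma 3.58.1 in R 4.3.3 (eBayes with trend), 3 control against 3 cKO libraries, with Benjamini-Hochberg adjustment. The computation was tested on simulated counts with the same dispersion for every gene and few changed genes. This checks the code and not its fit to these data. Members, lists, named genes and alternatives were chosen with earlier results of these data known. Named were the 9 genes, *Srsf1*, list genes past the threshold, *Ccdc155*, *Cdk2*, *Lbr*, *Terf1* and the nearest profiles, of which 1 is not reported here. Alternatives covered pseudocount (0.1), filter (none, or 5 FPKM), scaling (median of ratios, quantile, early prophase markers), trend, replicate block, limma-voom on the recovered fragments with TMM factors, and leaving out each library. Depth limits only counting precision. Promoters are from RefSeq (GRCm38.p6).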

Additional observations from a re-analysis of the deposited data

How the results depend on the processing

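*Sun2* and *Spdya* kept direction and call under all 15 alternatives. Not all of these are independent checks. Median-of-ratios scaling gave the same 1821 genes higher and 3437 lower. Changes of filter, trend and block left the log2 fold changes of both genes as reported. Without single libraries, 1 to 2 members were called higher (*Lmnb1* joined without cKO replicate 2), 1 to 2 lower (*Terb1* joined without control replicate 2), and 3 to 6 partner genes higher and 5 to 11 lower. The lowest partner counts came without cKO replicate 3 (5 lower) and without control replicate 1, control replicate 3 or cKO replicate 2 (3 higher each). Over the same fits the log2 fold change ranged from -1.22 to -0.60 for *Terb1*, -0.29 to -0.026 for *Terb2* (nearest 0 without cKO replicate 1), 0.0086 to 0.19 for *Lmna* (lowest without cKO replicate 2), -0.17 to 0.033 for *Majin*, -0.082 to 0.027 for *Sun1*, 0.22 to 0.43 for *Lmnb1*, -0.41 to 0.021 for *Lmnb2* and -0.11 to 0.0015 for *Terf1*. Quantile normalization moved the median of all genes to 0.20. It gave 3 members (*Sun2*, *Lmna* at 0.36, *Lmnb1* at 0.39) and 15 partner genes higher, and put *Majin* at 0.053, *Sun1* at 0.078 and *Terf1* at 0.12. Centring on early prophase markers moved that median to 0.19, gave 3 partner genes higher and 4 lower, and put *Terb2* at 0.0076, *Majin* at 0.15, *Sun1* at 0.18 and *Terf1* at 0.14. The causes were not tested.

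Same-numbered libraries did not deviate together (correlations across genes -0.0014, -0.11 and 0.016), and 1 of 6 libraries correlated best with its own number. With the replicate number as a block, 2 members were called lower, *Terb1* (-0.96, limma adjusted p = 0.0062) and *Spdya*, and 3 partner genes higher. Against 1821 genes higher and 3437 lower as reported, the block gave 891 and 2870, a minimum of 5 FPKM 1283 and 1950, and centring 1228 and 1908. Genes called higher numbered 1065 without control replicate 1, 1082 without control replicate 3, 1178 without cKO replicate 1 and 965 without cKO replicate 3. Among 299 results for other named genes, 47 lost the call, 1 gained it and 3 changed sign.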
